A study of Mus musculus with 3 samples.

Results

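The cells described here are the epineurial mesenchymal cells of the injured mouse sciatic nerve, taken from the bridge at day 21 after injury and set against those from the bridge at day 7. The epineurium is the outermost connective tissue coat of a nerve. Its fibroblasts lay down collagen and elastic fibres around the fascicles, and they border the perineurium, the layered barrier that encloses each fascicle, while the endoneurium lies inside among the axons. The bridge is the tissue that forms across the gap of a cut nerve, and mesenchymal cells of all these layers are found in it.

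Members were the cells to which the authors' deposited annotation gives the class MES_EPI. There were 1703 of them in the bridge libraries, 1027 at day 21 and 676 at day 7, of 7234 annotated cells in the series. They made up 24.98% of 4111 annotated cells at day 21 and 38.0% of 1780 at day 7. Intact nerve held 540 more, 40.2% of 1343, which are given as a level for context. The annotation also sets apart a class MES_EPI-diff, with 22 cells at day 21 and 94 at day 7, which is not part of the class described.

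All cells came from mice carrying the R26-TomatoLSL reporter (a floxed stop before TdTomato) switched on by Pdgfrb-cre/ERT2, a tamoxifen-inducible Cre driven by Pdgfrb, so the cells are those in which this driver was active when Cre was induced. Nerves were pooled within a sample and digested, and TdTomato-positive cells were sorted and sequenced by a droplet method. Myelin was removed with beads from the intact sample alone. Each time was 1 library, and with no replicates of either no test was made. TdTomato itself stood at 50.0 CPM at day 21 and 56.3 CPM at day 7 in the class, and at 60.5 CPM in intact nerve.

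Levels are CPM, counts of unique molecular identifiers (UMIs) summed over the class in a library and scaled so that all genes of the class add up to 1e6. The class held 10301753 UMIs at day 21 and 13544647 at day 7, so 3 counts were worth 0.291 CPM and 0.221 CPM. Depth per cell differed, with a median of 9666 UMIs at day 21 (range 2206 to 32109) and 19883.5 at day 7 (2409 to 59610). Intact nerve had a median of 6936.5 UMIs in the class, and 3 counts there were worth 0.760 CPM. The median share of mitochondrial UMIs was 1.4998% at day 21 and 0.863% at day 7. Intervals in parentheses are exact 95% intervals for counting error only. The bridge libraries had 58 barcodes in common, and 3 epineurial cells carried a barcode also found in the other bridge library.

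The class name held against markers. Classes of at least 50 cells in a library were compared, which leaves out the 22 MES_EPI-diff cells of day 21. Of 13 epineurial fibroblast markers, 12 had their highest level in this class at day 21, all but Cd34, and 12 at day 7, all but Comp, whereas 0 of 8 endoneurial and 0 of 8 perineurial markers did at either time. Pi16, a peptidase inhibitor that marks adventitial fibroblasts, stood at 651 CPM at day 21 and 631 CPM at day 7, and in no other class of at least 50 cells did it exceed 107 CPM at either time. The 22 MES_EPI-diff cells of day 21 had 191 CPM of Pi16. Its partner marker Dpp4 had 55.7 CPM at day 21 and 61.7 CPM at day 7. Both were near equal over the whole class. After each cell was thinned to 2000 UMIs, which left out 0 cells, a Pi16 UMI was found in 41.2% of epineurial cells at day 21 and 42.3% at day 7 (64.5% and 72.2% without thinning), beside 7.60% and 8.24% of endoneurial cells.

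Between day 21 and day 7, 9921 genes were measured, meaning at least 5 CPM in either library. Of these, 428 were at least 2-fold higher at day 21 (4.31%) and 268 at least 2-fold lower (2.70%). Counts over gene lists below, where taken over the whole class, are to be set beside these shares. The median log2 ratio was 0.05, with quartiles at -0.22 and 0.33. For 226 of the higher genes and 139 of the lower ones the whole counting interval lay beyond 2-fold, and 82 and 66 genes passed 4-fold.

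Depth per cell moved with the comparison. At day 21 the 60 epineurial cells over 16000 UMIs had 2926 CPM over the injury gene list described below and 4354 CPM of Gsn, while the 673 cells of 8000 to 16000 UMIs had 2219 CPM and 5386 CPM. At day 7 the 486 cells over 16000 UMIs had 5944 CPM over the injury list and 556 CPM of Gsn, while the 130 cells of 8000 to 16000 UMIs had 4071 CPM and 1729 CPM. The comparison was therefore repeated over cells of 8000 to 16000 UMIs in both libraries, called matched depth below, a choice made after the depths were seen. The medians within this band, 10626 UMIs at day 21 and 13013 at day 7, still differed. It gave 505 genes higher and 337 lower, beside 428 and 268 over the whole class, and a median log2 ratio of 0.07. The shares of 4.31% and 2.70% hold for the whole class and not at matched depth. No share over all genes is given there, so list counts at matched depth describe the listed genes alone. All 30 genes named by size of ratio stayed past 2-fold, 28 of them with a smaller ratio, and values at matched depth are given beside each described gene of at least 20 CPM in either library whose ratio moved by over 1.5 times or whose call ended. Counts over a list at matched depth are given where they differed by over 1.5 times. Levels of intact nerve given below are over its whole class and are not matched for depth. They also differed by depth: intact cells under 8000 UMIs had 26899 CPM of Gsn and 141 CPM of Postn. Intact cells of 8000 to 16000 UMIs had 20473 CPM and 327 CPM. Depth and state cannot be told apart in comparisons with intact nerve.

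**Figure D1:**
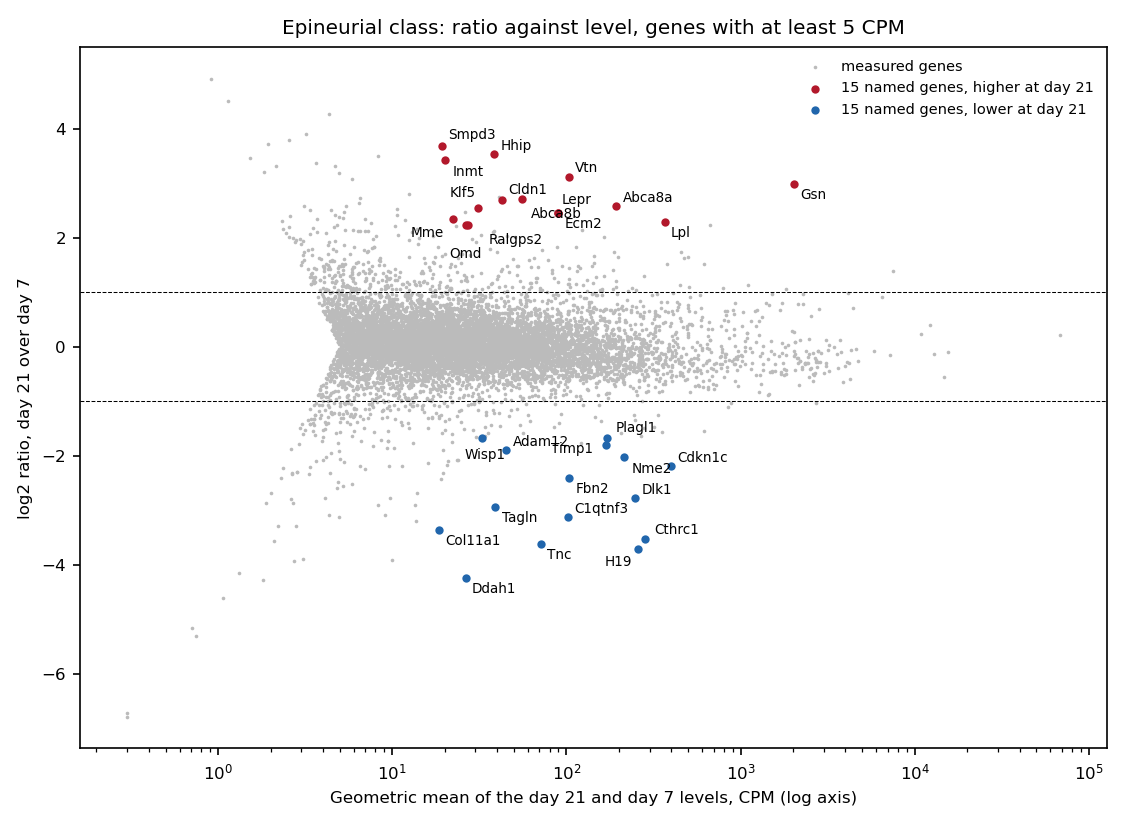
Log2 ratio of day 21 over day 7 in epineurial cells (y axis) against the geometric mean of the levels at both times in CPM (x axis, log scale). Grey points are the 9921 measured genes, red and blue points are the 15 genes named in each direction, and dashed lines mark 2-fold. Gsn, at 5676 CPM at day 21, lies farthest right of the red points.

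The genes lowest at day 21 relative to day 7 included several of the wound matrix. Cthrc1, a secreted collagen triple helix repeat protein made by activated fibroblasts, had 83.9 CPM at day 21 and 962 CPM at day 7, 11.5-fold lower at day 21 (10.7 to 12.3). Endoneurial cells held more Cthrc1, at 258 CPM at day 21 and 985 CPM at day 7. Tnc, the matricellular protein tenascin C, had 20.2 CPM at day 21 and 250 CPM at day 7, 12.4-fold lower (10.8 to 14.3), and 5.19-fold lower at matched depth. Lrrc15, a membrane protein of activated fibroblasts, had 2.52 CPM at day 21 and 38.9 CPM at day 7, 15.1-fold lower (10.4 to 23.8). In intact nerve Cthrc1 stood at 5.07 CPM, Tnc at 4.31 CPM and Lrrc15 at 0.253 CPM, so day 21 lay between day 7 and intact nerve for each.

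Of the 8 genes of an injury mesenchyme list, 7 were past 2-fold lower at day 21 and 0 higher, with a median log2 ratio of -1.84 beside 0.05 over all measured genes. This list and the others below were chosen with earlier results of these data known, so their counts and medians only describe these libraries. Adam12, a membrane metalloprotease, had 23.5 CPM at day 21 and 87.1 CPM at day 7, 3.70-fold lower and 2.09-fold lower at matched depth. Timp1, an inhibitor of metalloproteases, had 89.9 CPM at day 21 and 313 CPM at day 7. Endoneurial cells held more Timp1 at day 7, at 417 CPM. Inhba, which encodes the activin A subunit, had 12.04 CPM at day 21 and 40.4 CPM at day 7. Postn, the matricellular protein periostin, was the least different of the 7, with 1888 CPM at day 21 and 3856 CPM at day 7, 2.04-fold lower (2.01 to 2.08) and 1.45-fold lower at matched depth. Intact nerve had 262 CPM of Postn. Runx1, a transcription factor, did not pass 2-fold, with 73.6 CPM at day 21 and 127 CPM at day 7 and a log2 ratio of 0.01 at matched depth. The list then had 6 of 8 members past 2-fold lower. Summed over the list the class carried 2194 CPM at day 21 and 5675 CPM at day 7.

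The injury genes were detected in a smaller share of cells at day 21 than at day 7. After thinning, 33.4% of cells at day 21 (30.5% to 36.4%) and 84.0% at day 7 (81.0% to 86.7%) had a UMI of at least 2 of the 8 genes. Without thinning the shares were 76.3% at day 21 and 98.4% at day 7. At least 3 were detected in 6.04% of cells at day 21 and 50.7% at day 7. Leaving out Postn, which alone was found in 79.6% of cells at day 21 and 92.0% at day 7, at least 1 of the other 7 genes was detected in 39.4% of cells at day 21 and 87.0% at day 7. Cthrc1 alone was detected in 11.003% of thinned cells at day 21 and 62.1% at day 7 (31.9% and 91.4% without thinning). Perineurial cells had a Cthrc1 UMI in 0.773% at day 21 and 33.2% at day 7, also after thinning.

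**Figure D2:**
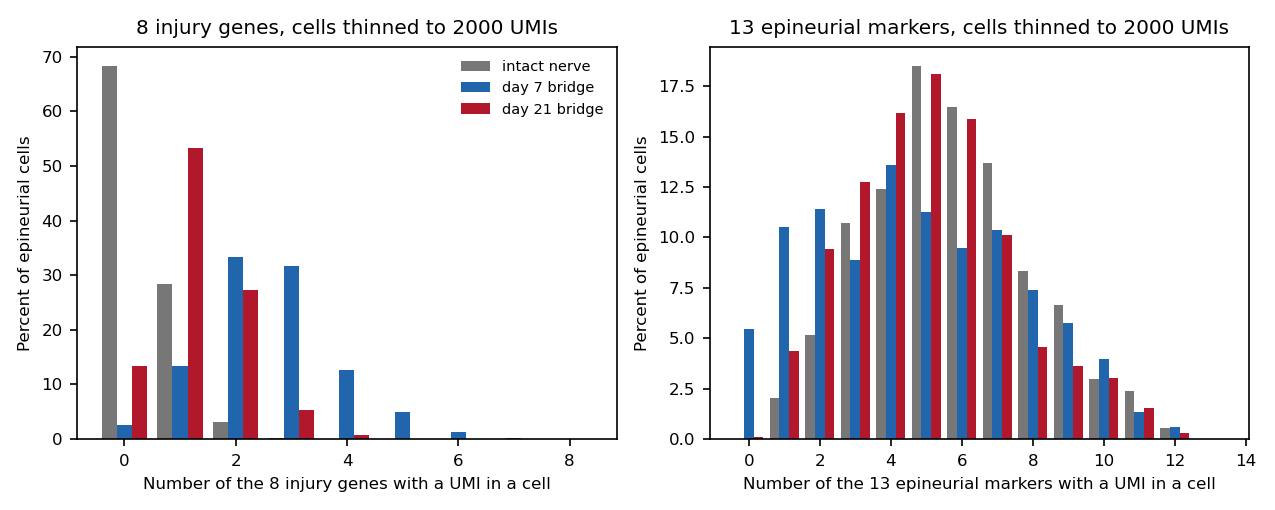
Percent of epineurial cells (y axis) by the number of genes with a UMI in a cell (x axis), after thinning each cell to 2000 UMIs, for the 8 injury genes (left) and the 13 epineurial markers (right), in intact nerve (grey), day 7 (blue) and day 21 (red). The injury distribution had its median at 1 gene at day 21 and at 3 genes at day 7, while the epineurial markers had a median of 5 at both.

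The injury genes were set against the adventitial marker Pi16 within each library. At day 21 a Cthrc1 UMI was present in 9.69% of thinned cells with a Pi16 UMI and 11.9% of those without, and at day 7 in 58.7% of cells with it and 64.6% of those without. Within day 7, Gsn was detected in 49.3% of cells with Cthrc1 and in 70.3% of cells without, and Dlk1 in 38.8% of cells with Cthrc1 and 21.9% without. Cells of 1 library share their source, so these shares describe the libraries.

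Contractile genes, which mark myofibroblasts and smooth muscle, were lower in part. Of 17 measured, 5 were past 2-fold lower and 0 higher, with a median log2 ratio of -0.34. Tagln, an actin-binding protein, had 14.1 CPM at day 21 and 109 CPM at day 7, 7.69-fold lower (6.502 to 9.22) and 3.60-fold lower at matched depth. Acta2, smooth muscle actin, had 5.44 CPM at day 21 and 35.0 CPM at day 7, 6.39-fold lower (4.87 to 8.65) and 3.94-fold lower at matched depth. Tpm2, a tropomyosin, had 32.4 CPM at day 21 and 96.7 CPM at day 7. Actn1 and Cnn2 were just past 2-fold lower, at 2.03 and 2.02, and Actn1 was 1.43-fold lower at matched depth. The regulatory light chain Myl9 stood at 54.7 CPM at day 21 and 59.7 CPM at day 7. Acta2 was detected in 0.974% of thinned cells at day 21 and 4.73% at day 7 (4.58% and 25.3% without thinning), and the dividing class MES_DIV held 758 CPM at day 7. Smooth muscle markers in the class were otherwise scarce, with Actg2, Lmod1 and Cnn1 at 3 counts or fewer at day 21. The summed smooth muscle list was 25.3 CPM at day 21 and 149 CPM at day 7, and its part in these values was not tested.

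H19, an imprinted noncoding RNA on chr7:142575529-142578143 (GRCm38, minus strand), had 71.2 CPM at day 21 and 934 CPM at day 7, 13.1-fold lower at day 21 (12.2 to 14.1). Cdkn1c, the p57 inhibitor of the cell cycle, lies at chr7:143458339-143461050 in the same stretch of imprinted genes and had 186 CPM at day 21 and 847 CPM at day 7, 4.57-fold lower (4.35 to 4.80). Intact nerve held 56.5 CPM of H19 and 146 CPM of Cdkn1c, close to day 21. Of 14 measured imprinted growth genes, 5 were past 2-fold lower at day 21 and 0 higher. Dlk1, a Notch-like membrane protein of immature mesenchyme, had 95.3 CPM at day 21 and 651 CPM at day 7, 6.82-fold lower (6.39 to 7.30), and 5.32 CPM in intact nerve. Plagl1, a zinc finger factor, had 95.8 CPM at day 21 and 307 CPM at day 7. The remaining one, Igf2, named because it completes the count, had 1.46 CPM at day 21 and 12.7 CPM at day 7.

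The other imprinted genes were within 2-fold, and the median log2 ratio over all 14 was -0.48. Mest, a hydrolase, had 541 CPM at day 21 and 925 CPM at day 7, with a log2 ratio of -0.09 at matched depth. Peg3, a zinc finger protein, had 276 CPM at day 21 and 263 CPM at day 7, and 57.2 CPM in intact nerve. Mest had 46.9 CPM in intact nerve, so both stood well above the intact level at day 21. H19 was not confined to epineurial cells: endoneurial cells had 84.6 CPM at day 21 and 1253 CPM at day 7, and perineurial cells had 34.7 CPM at day 21 and 743 CPM at day 7. Cdkn1c differed between classes. It was higher at day 21 in endoneurial cells, at 216 CPM beside 101 CPM at day 7, and in perineurial cells, at 229 CPM beside 185 CPM. In MES_DIFF cells it was lower, at 154 CPM beside 242 CPM. Plagl1 had a log2 ratio of 0.04 in endoneurial and -1.09 in perineurial cells. After thinning, 8.18% of epineurial cells had an H19 UMI at day 21 and 53.7% at day 7 (15.6% and 82.8% without thinning).

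**Figure D3:**
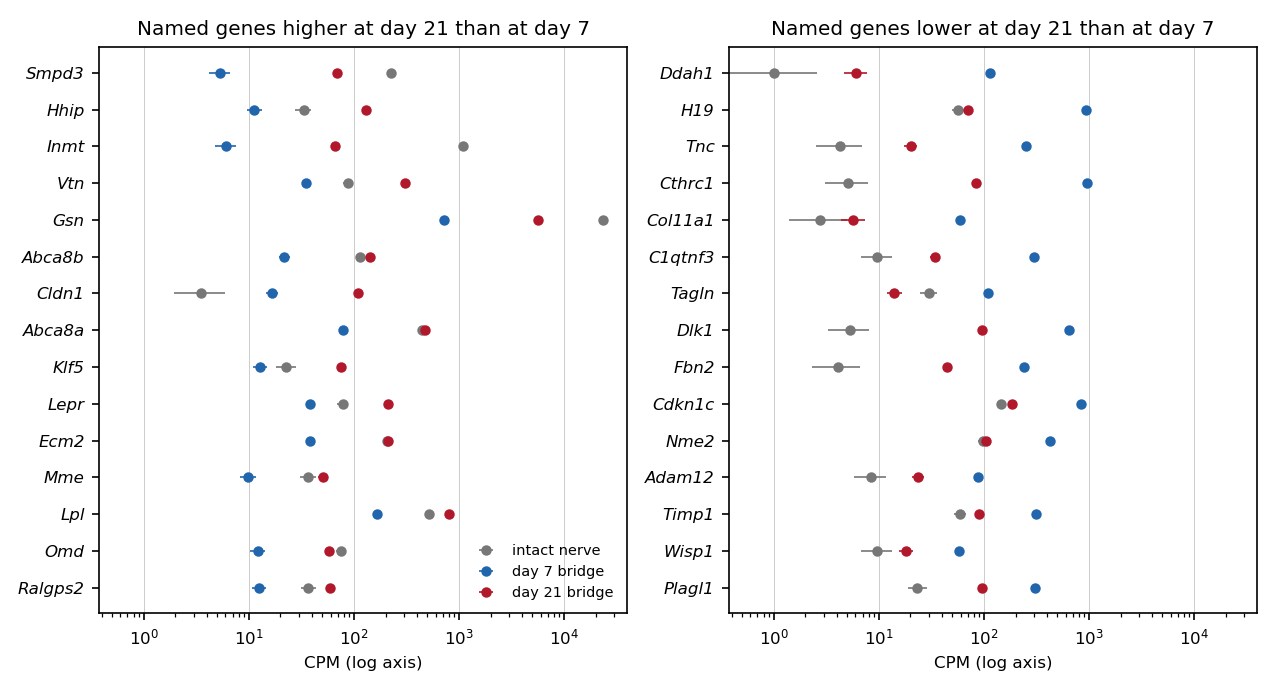
Level in CPM (x axis, log scale) of the 15 named genes higher at day 21 (left) and the 15 lower (right) in epineurial cells of intact nerve (grey), day 7 (blue) and day 21 (red). Bars are exact 95% intervals for counting error and each point is 1 library. Genes such as Abca8a and Ecm2 lay at nearly the same level at day 21 and in intact nerve, whereas Inmt was still far under its intact level.

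Other genes named for the largest lower ratios were matrix and growth genes of several kinds. Ddah1, which degrades methylated arginine, had 6.02 CPM at day 21 and 116 CPM at day 7, 19.1-fold lower (14.9 to 25.2), and 1.01 CPM in intact nerve. C1qtnf3, a secreted C1q domain protein, had 34.5 CPM at day 21 and 300 CPM at day 7, 8.71-fold lower (7.82 to 9.74) and 4.83-fold lower at matched depth. Wisp1, a matricellular Wnt target, had 18.2 CPM at day 21 and 58.3 CPM at day 7. Nme2, a nucleoside diphosphate kinase, had 106 CPM at day 21 and 428 CPM at day 7, but it overlaps a readthrough gene shared with Nme1, so its count is uncertain. The genes next in order after these 15 were Egfl6, Nrk and Ccl2, 3.13-, 3.11- and 3.11-fold lower. At matched depth Egfl6 was 1.55-fold and Nrk 1.34-fold lower.

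Several of these genes were far higher in the separate MES_EPI-diff class of day 7. That class held 3054 CPM of Tnc, 1249 CPM of C1qtnf3, 1098 CPM of Tagln, 354 CPM of Ddah1 and 8580 CPM of Postn. The injury list summed to 5675 CPM in MES_EPI and 14658 CPM in MES_EPI-diff at day 7, and the epineurial markers to 6011 CPM in MES_EPI and 896 CPM in MES_EPI-diff. The day 7 values of MES_EPI above do not include these 94 cells, nor the day 21 values the 22 cells of that class.

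Fibrillar collagens, the bulk of the epineurial matrix, differed little. Col1a1 had 12138 CPM at day 21 and 17920 CPM at day 7, 1.48-fold lower, against 4656 CPM in intact nerve. Col3a1 had 14932 CPM at day 21 and 16019 CPM at day 7. Of 25 measured collagen chains, 4 were past 2-fold higher, 4 past 2-fold lower, and the median log2 ratio was -0.00. At matched depth 1 was past 2-fold higher and 2 lower. The lower ones were minor fibril, fibril-associated and network collagens. Col11a1, a fibril-nucleating chain, had 5.73 CPM at day 21 and 59.7 CPM at day 7, 10.3-fold lower (7.99 to 13.8) and 5.53-fold lower at matched depth. Endoneurial cells held more Col11a1, at 87.6 CPM at day 21 and 265 CPM at day 7. Col8a2, a network collagen, had 7.67 CPM at day 21 and 33.8 CPM at day 7. Col12a1 and Col14a1, which decorate fibrils, were 2.99- and 2.03-fold lower, with Col12a1 at 119 CPM at day 21 and 355 CPM at day 7, and they were 1.91- and 1.84-fold lower at matched depth.

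The higher ones were basement membrane collagens, the sheet-forming type IV chains and the linking Col15a1. Col4a1 and Col4a2 encode the main type IV heterotrimer and are transcribed in opposite directions from adjacent starts on chromosome 8. The stretch around their starts is shown because both chains share it and both were higher at day 21. Capitals mark 22 bases, from the annotated start of Col4a2 at 11312805 (plus strand) to that of Col4a1 at 11312826 (minus strand). Both start bases are included, and the annotated transcripts overlap over these bases on opposite strands. The stretch is chr8:11312801-11312830 (RefSeq, GRCm38.p6), written as the plus strand.
Col4a2 and Col4a1 starts: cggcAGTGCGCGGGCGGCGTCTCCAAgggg
Col4a1 had 643 CPM at day 21 and 224 CPM at day 7, 2.87-fold higher (2.74 to 2.99). Col4a2 had 293 CPM at day 21 and 128 CPM at day 7, 2.30-fold higher (2.16 to 2.44). At matched depth Col4a1 was 1.88-fold and Col4a2 1.62-fold higher, both short of 2-fold. Col15a1, which lies between basement membrane and fibrils, had 435 CPM at day 21 and 177 CPM at day 7. The fourth past 2-fold was Col4a4, at 12.04 CPM at day 21 and 4.58 CPM at day 7, named to complete the count. Intact nerve held 471 CPM of Col4a1, 206 CPM of Col4a2 and 234 CPM of Col15a1, so all were higher at day 21 than in intact nerve and lower at day 7.

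Laminins, the other main sheet of basement membranes, were partly higher. Of 10 measured basement membrane genes, 3 were past 2-fold higher and 0 lower, with a median log2 ratio of 0.46. At matched depth 1 was past 2-fold higher. Lama2, the laminin chain of muscle and nerve basement membranes, had 246 CPM at day 21 and 85.1 CPM at day 7, 2.89-fold higher (2.70 to 3.11). Lamb2 had 224 CPM at day 21 and 109 CPM at day 7, 2.06-fold higher and 1.38-fold at matched depth. Nid1, a laminin and collagen IV linker, had 998 CPM at day 21 and 717 CPM at day 7, and Hspg2, perlecan, had 265 CPM at day 21 and 267 CPM at day 7. At day 21, 55.2% of thinned cells with a Col4a1 UMI also had a Col15a1 UMI, against 41.4% of cells without Col4a1. At day 7 the shares were 35.1% and 17.1%.

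Of 23 measured enzymes that modify collagen and their partners, 4 were past 2-fold lower and 1, Pcolce2, higher. At matched depth the count was 1 lower and 0 higher. Lox, lysyl oxidase, which cross-links collagen and elastin, had 166 CPM at day 21 and 466 CPM at day 7, 2.81-fold lower (2.66 to 2.97) and 1.99-fold at matched depth. Intact nerve had 179 CPM of Lox. P4ha3, a prolyl hydroxylase subunit, had 12.5 CPM at day 21 and 38.2 CPM at day 7. Pcolce2, an enhancer of procollagen cleavage and an epineurial marker, had 106 CPM at day 21 and 35.4 CPM at day 7, 3.00-fold higher (2.69 to 3.35) and 1.38-fold at matched depth, but 645 CPM in intact nerve.

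Small leucine-rich proteoglycans, which coat collagen fibrils, differed by gene. Dcn, decorin, had 12102 CPM at day 21 and 4600 CPM at day 7, 2.63-fold higher (2.61 to 2.66), and 16985 CPM in intact nerve. Bgn, biglycan, went the other way, with 1071 CPM at day 21 and 1958 CPM at day 7. A cluster of 4 such genes lies at chr13:49504810-49624501. Within it Ecm2 was 5.48-fold higher at day 21 (4.98 to 6.05) and Omd, osteomodulin, 4.73-fold higher (3.98 to 5.67), while Aspn, asporin, was 1.09-fold lower and Ogn, osteoglycin, 1.59-fold higher. Ecm2 had 210 CPM at day 21 and 38.3 CPM at day 7, and Omd had 57.4 CPM at day 21 and 12.1 CPM at day 7. Both were higher still in perineurial cells of day 21, at 430 CPM for Ecm2 and 128 CPM for Omd. Of 10 measured members 3 were past 2-fold higher and 1 lower, which was Fmod, fibromodulin, at 25.04 CPM at day 21 and 68.9 CPM at day 7 and 1.81-fold lower at matched depth, where 3 members were higher and 0 lower.

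Elastic fibre genes, typical of the epineurium, had a median log2 ratio of -0.43 over 17 genes. Ltbp4, a latent TGF-beta binding protein needed for elastic fibre assembly, had 1449 CPM at day 21 and 309 CPM at day 7, 4.69-fold higher (4.53 to 4.85), close to the 1310 CPM of intact nerve. Fbn2, the fibrillin of developing tissue, had 45.0 CPM at day 21 and 239 CPM at day 7, 5.31-fold lower (4.82 to 5.87), whereas the adult fibrillin Fbn1 had 1021 CPM at day 21 and 1454 CPM at day 7. Endoneurial cells held more Fbn2, at 237 CPM at day 21 and 346 CPM at day 7. Perineurial cells had 85.7 CPM of it at day 21 and 464 CPM at day 7. Elastin itself, Eln, had 659 CPM at day 21 and 967 CPM at day 7. Apart from Ltbp4 higher and Fbn2 and the scarce Ltbp2 lower, the other 14 members were within 2-fold. Of 13 measured hyaluronan and chondroitin matrix genes, 2 were past 2-fold lower, led by Vcan, the provisional matrix proteoglycan versican, at 218 CPM at day 21 and 516 CPM at day 7 and 1.89-fold lower at matched depth, where 0 of the 13 passed 2-fold.

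Among the genes highest at day 21 relative to day 7 were an actin regulator, an adhesive protein and a lipid enzyme. Gsn, the actin-severing protein gelsolin, had 5676 CPM at day 21 and 719 CPM at day 7, 7.89-fold higher (7.72 to 8.06) and 3.11-fold at matched depth. Intact nerve had 23329 CPM of it. It was detected in 98.7% of thinned cells at day 21 and 57.2% at day 7 (100% and 97.2% without thinning). Vtn, the adhesive plasma protein vitronectin, had 305 CPM at day 21 and 35.0 CPM at day 7, 8.72-fold higher (7.92 to 9.63), above the 87.9 CPM of intact nerve. Perineurial cells held more Vtn, at 346 CPM at day 21 and 144 CPM at day 7, as did endoneurial cells at day 7, at 96.9 CPM. Smpd3, a neutral sphingomyelinase, had 69.2 CPM at day 21 and 5.32 CPM at day 7, 12.9-fold higher (10.2 to 16.8) and 3.54-fold at matched depth, against 224 CPM in intact nerve. Levels at day 21 thus passed intact nerve for Vtn and stayed under it for Gsn and Smpd3.

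Hedgehog signals pass from Schwann cells to nerve sheath mesenchyme, where target genes include the receptor Ptch1, the decoy receptor Hhip and the factor Gli1. Hhip, at chr8:79965851-80058006, had 131 CPM at day 21 and 11.3 CPM at day 7, 11.6-fold higher (9.81 to 13.8) and 5.78-fold at matched depth. Intact nerve had 33.2 CPM of Hhip. Ptch1 had 101 CPM at day 21 and 44.3 CPM at day 7, 2.28-fold higher (2.06 to 2.52) and 4.90-fold at matched depth, but with a log2 ratio of 0.76 once cells with perineurial or myelin transcripts were left out, as described below. Gli1 had 41.8 CPM at day 21 and 27.8 CPM at day 7, short of 2-fold, and the signal transducer Smo had 48.1 CPM at day 21 and 41.1 CPM at day 7. Hhip, Ptch1 and Gli1 stood above intact nerve at day 21, where Ptch1 had 28.4 CPM and Gli1 14.4 CPM.

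Over the 11 hedgehog genes, 3 were past 2-fold higher and 0 lower, with a median log2 ratio of 0.55. At least 2 of them were detected in 53.4% of thinned cells at day 21 (50.3% to 56.4%) and 26.0% at day 7 (22.8% to 29.5%), and without thinning in 95.2% at day 21 and 92.2% at day 7. A Ptch1 UMI was present in 25.7% of thinned day 21 cells with Hhip and 12.9% of those without. At day 7 it was present in 0 of the 8 thinned cells with Hhip and 7.19% of those without. Hhip was highest in epineurial cells at day 21, with 63.2 CPM in MES_DIFF, 3.96 CPM in perineurial and 2.07 CPM in endoneurial cells. It was detected in 18.6% of thinned epineurial cells at day 21 and 1.18% at day 7 (39.2% and 7.99% without thinning), beside 0.628% and 4.56% of thinned perineurial cells. Ptch1, by contrast, was highest in perineurial cells, at 740 CPM at day 21 and 542 CPM at day 7.

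**Figure D4:**
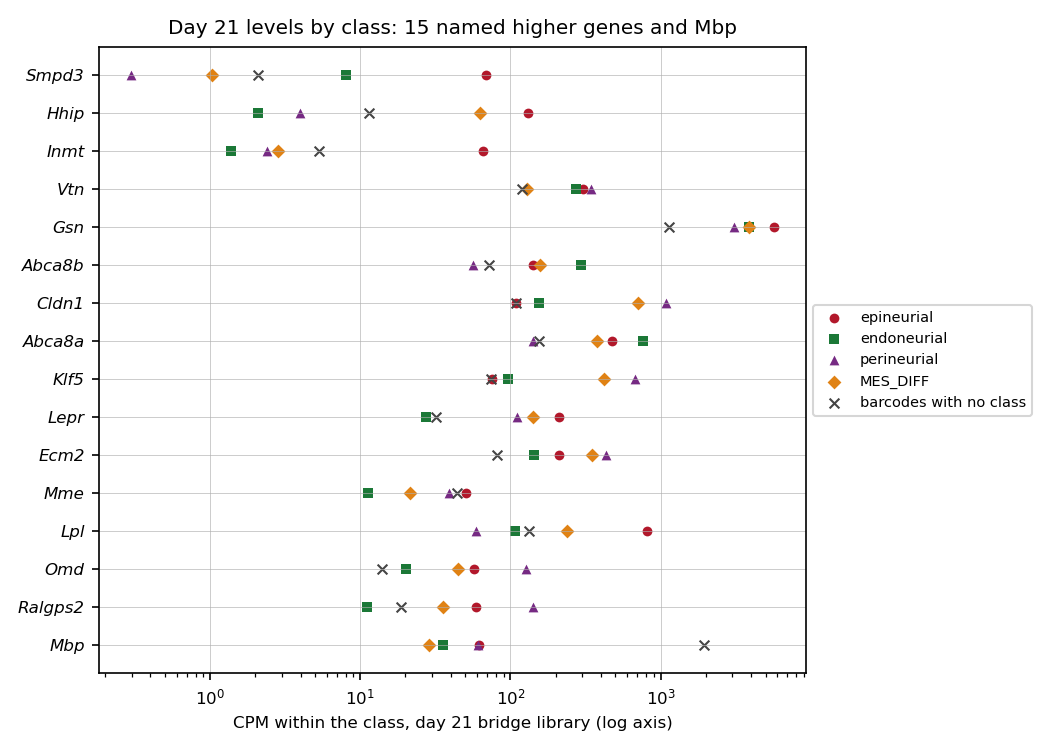
Level in CPM within each class of the day 21 library (x axis, log scale) of the 15 named higher genes and the myelin gene Mbp, with epineurial cells in red. Smpd3, Hhip, Inmt, Lpl, Lepr and Gsn were highest in epineurial cells, while Cldn1, Klf5, Ecm2, Omd and Ralgps2 were highest in perineurial cells and Mbp in barcodes with no class.

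Over the whole class, enzymes acting on small molecules were the process list with the highest median. Of 18 measured, 10 were past 2-fold higher at day 21 and 0 lower, and the median log2 ratio was 1.20. Inmt, a methyltransferase of indoles, had 65.9 CPM at day 21 and 6.05 CPM at day 7, 10.8-fold higher (8.65 to 13.9) and 3.19-fold at matched depth. Gstm1, a glutathione transferase, had 331 CPM at day 21 and 81.7 CPM at day 7, 4.06-fold higher (3.79 to 4.35) and 2.32-fold at matched depth. Fmo2, a flavin monooxygenase, had 92.2 CPM at day 21 and 22.6 CPM at day 7, 4.08-fold higher and 1.81-fold at matched depth. Sult1a1, a sulfotransferase, had 25.7 CPM at day 21 and 4.43 CPM at day 7, 5.77-fold higher and 3.60-fold at matched depth, though perineurial cells of day 21 held more, at 97.9 CPM. At matched depth 6 of the 18 enzymes were past 2-fold higher and 0 lower. The median log2 ratio of the list was then 0.77, under the 0.85 of the hedgehog list.

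For most of these enzymes day 21 was still short of intact nerve. Inmt had 1099 CPM in intact nerve, Fmo2 441 CPM and Gstm1 562 CPM. The alcohol dehydrogenase Adh1 had 24.5 CPM at day 21 and 6.28 CPM at day 7 (1.79-fold higher at matched depth), and 210 CPM in intact nerve. At least 2 enzymes were detected in 83.1% of thinned cells at day 21 and 58.4% at day 7, and in 93.3% in intact nerve. Without thinning the shares were 99.7% at day 21 and 99.1% at day 7. Gpx3, a secreted glutathione peroxidase, was an exception, with 724 CPM at day 21, 578 CPM at day 7 and less in intact nerve, at 335 CPM.

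Lipid handling genes had 6 members past 2-fold higher and 2 lower of 19, with a median log2 ratio of 0.75, and at matched depth 5 higher and 1 lower. Lpl, lipoprotein lipase, which releases fatty acids from circulating lipoproteins, had 807 CPM at day 21 and 166 CPM at day 7, 4.87-fold higher (4.65 to 5.10) and 3.22-fold at matched depth, and in day 21 cells of other classes it did not pass 237 CPM. The ABC transporters Abca8b, Abca8a and Abca6 lie side by side at chr11:109932190-110251776. Abca8a had 473 CPM at day 21 and 79.3 CPM at day 7, 5.96-fold higher (5.58 to 6.38) and 3.78-fold at matched depth, Abca8b was 6.53-fold higher (5.76 to 7.43) and Abca6 2.93-fold higher (2.39 to 3.62). These neighbours were higher still in endoneurial cells, at 767 CPM for Abca8a, 296 CPM for Abca8b and 324 CPM for Abca6 at day 21.

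The lower lipid genes were Fabp5 and Angptl4. Fabp5, a fatty acid carrier, had 8.74 CPM at day 21 and 43.9 CPM at day 7, 5.00-fold lower (4.02 to 6.35). Angptl4, an inhibitor of Lpl, had 32.1 CPM at day 21 and 72.2 CPM at day 7, 2.25-fold lower (1.98 to 2.55), but 1.20-fold higher at matched depth. The leptin receptor Lepr had 209 CPM at day 21 and 37.9 CPM at day 7, 5.52-fold higher (5.01 to 6.09), against 78.0 CPM in intact nerve. Mme, a membrane peptidase, had 50.3 CPM at day 21 and 9.82 CPM at day 7.

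Complement genes differed by gene. C7, a component of the membrane attack complex, had 28.0 CPM at day 21 and 2.44 CPM at day 7, 11.3-fold higher (7.99 to 17.0), and 261 CPM in intact nerve. C2 and Cfb, paralogs that lie next to each other at chr17:34856374-34898265, went in opposite directions: C2 had 157 CPM at day 21 and 55.9 CPM at day 7, whereas Cfb had 15.4 CPM at day 21 and 31.1 CPM at day 7. The log2 ratio of Cfb was -1.01, and -0.83 once cells with perineurial or myelin transcripts were left out, inside 2-fold. The protease C1ra had 344 CPM at day 21 and 162 CPM at day 7, but at matched depth it was 1.62-fold higher. The central component C3 had 282 CPM at day 21 and 271 CPM at day 7, far under the 1392 CPM of intact nerve, and was 1.46-fold lower at matched depth. In all, 4 of 11 measured members were past 2-fold higher and 1 lower, and at matched depth 2 were higher and 2 lower.

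Chemokines that draw monocytes were lower. Ccl2 had 152 CPM at day 21 and 473 CPM at day 7, 3.11-fold lower (2.94 to 3.29), and Ccl7 had 206 CPM at day 21 and 611 CPM at day 7, 2.97-fold lower (2.83 to 3.11). Intact nerve was close to day 21 for both, at 163 CPM of Ccl2 and 226 CPM of Ccl7. They share a cluster at chr11:82035571-82116799 with Ccl8, 2.21-fold lower and 1.67-fold at matched depth, and with the eosinophil attractant Ccl11, which was 2.44-fold higher (2.28 to 2.62) at 230 CPM at day 21 and 94.1 CPM at day 7, and 1.54-fold at matched depth. The neutrophil attractant Cxcl2 had 55.7 CPM at day 21 and 147 CPM at day 7 and was 1.53-fold lower at matched depth. Of 20 measured chemokines and cytokines, 5 were past 2-fold lower, the fifth being the scarce Cxcl5, and 1 higher. At matched depth 5 were lower and 2 higher.

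Factors acting on vessels had 4 of 20 members past 2-fold higher and 3 lower. Vegfa, the main endothelial growth factor, had 187 CPM at day 21 and 71.5 CPM at day 7, 2.61-fold higher (2.42 to 2.83), and 128 CPM in intact nerve. Hgf, a growth factor that also acts on endothelium, had 36.9 CPM at day 21 and 12.8 CPM at day 7, 2.88-fold higher and 4.50-fold at matched depth. The Tie2 ligand Angpt4 had 28.6 CPM at day 21 and 7.16 CPM at day 7, 3.98-fold higher and 7.20-fold at matched depth. Fgf1, a fibroblast growth factor, had 31.7 CPM at day 21 and 15.1 CPM at day 7 and was 1.93-fold higher at matched depth.

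Cues for axons were present at both times. Ptn, the heparin-binding growth factor pleiotrophin, had 726 CPM at day 21 and 817 CPM at day 7, and 16.5 CPM in intact nerve. At matched depth Ptn was 2.12-fold higher at day 21. Mdk, its relative midkine, had 428 CPM at day 21 and 584 CPM at day 7. Of 25 measured guidance genes, 5 were past 2-fold higher and 2 lower, and at matched depth 4 were higher and 4 lower. Ntn4, a laminin-like netrin, had 85.6 CPM at day 21 and 28.1 CPM at day 7, 3.04-fold higher (2.70 to 3.44). The repellent Slit2 had 32.8 CPM at day 21 and 13.2 CPM at day 7, 2.48-fold higher and 5.94-fold at matched depth, and the ephrin receptor Epha4 had 41.2 CPM at day 21 and 16.8 CPM at day 7.

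Growth factor signalling genes gave mixed counts. Of 16 BMP genes, 4 were past 2-fold higher and 1 lower (3 and 2 at matched depth), led by the ligand Gdf10, at 349 CPM at day 21 and 112 CPM at day 7 (1.94-fold higher at matched depth), and by the target Id2, at 114 CPM at day 21 and 41.0 CPM at day 7. Of 15 TGF-beta genes, 1 was higher, the matrix protein Tgfbi, at 234 CPM at day 21 and 83.3 CPM at day 7, and 2 were lower, Inhba and the activin antagonist Fst, at 106 CPM at day 21 and 222 CPM at day 7 and 1.79-fold lower at matched depth, where 1 TGF-beta gene was higher and 1 lower. Wnt inhibitors and targets had 2 of 13 past 2-fold higher and 3 lower (3 and 3 at matched depth). Sfrp5, a secreted Wnt inhibitor, was 7.00-fold higher at 33.3 CPM at day 21 and 4.73 CPM at day 7, but perineurial cells had 796 CPM at day 21. At matched depth Sfrp5 was 11.3-fold higher (4.43 to 64.5), with 3 counts behind the day 7 level. Notch genes had 0 of 7 past 2-fold in either direction, and 1 higher at matched depth. Igf1, a growth factor for muscle and nerve, had 2224 CPM at day 21 and 1837 CPM at day 7, and 717 CPM in intact nerve.

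The receptors that define the lineage were within 2-fold. Pdgfra had 504 CPM at day 21 and 287 CPM at day 7, 1.76-fold higher (1.69 to 1.83), against 718 CPM in intact nerve. Pdgfrb, whose promoter drives the Cre, had 197 CPM at day 21 and 136 CPM at day 7, 1.45-fold higher (1.36 to 1.54). Of 7 measured receptors and ligands of this family only Pdgfc passed 2-fold, lower at 6.99 CPM at day 21 and 14.8 CPM at day 7.

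Of 34 measured transcription factors of fibroblast identity, 4 were past 2-fold higher and 2 lower, beside 4.31% and 2.70% of all measured genes. Ahr, the aryl hydrocarbon receptor, had 80.2 CPM at day 21 and 18.4 CPM at day 7, 4.36-fold higher (3.78 to 5.05), and 3.55 CPM in intact nerve. Nr2f2, an orphan nuclear receptor, had 198 CPM at day 21 and 72.5 CPM at day 7, while Meox2 and Zeb2 were 2.22- and 2.10-fold higher, and Zeb2 1.66-fold at matched depth. Prrx2, a homeobox gene of limb mesenchyme, had 38.8 CPM at day 21 and 92.4 CPM at day 7, and the scarce Sox11 had 2 counts at day 21. Klf5, a zinc finger factor of epithelia and muscle, had 75.7 CPM at day 21 and 12.8 CPM at day 7, 5.88-fold higher (4.99 to 6.99), with 680 CPM in perineurial cells of day 21.

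Secretory pathway and respiratory chain genes differed little, while cell cycle genes were in part lower at day 21. Of 25 secretory pathway genes and 22 respiratory chain genes, 0 passed 2-fold, with median log2 ratios of -0.01 and -0.26. Of 9 measured S phase genes 2 were past 2-fold lower (1 at matched depth), with a median log2 ratio of -0.64 (-0.38 at matched depth). A single mitosis gene was measured, Cdk1, at 0.582 CPM at day 21 and 7.46 CPM at day 7. The mitosis list summed to 8.25 CPM at day 21 and 26.7 CPM at day 7. At least 1 mitosis gene was detected in 1.27% of thinned cells at day 21 and 4.14% at day 7 (5.36% and 31.5% without thinning). Of 19 immediate-early genes, which dissociation can induce, 3 were past 2-fold higher at matched depth and 1 over the whole class, the cytokine feedback gene Socs3, at 1049 CPM at day 21 and 364 CPM at day 7.

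**Figure D5:**
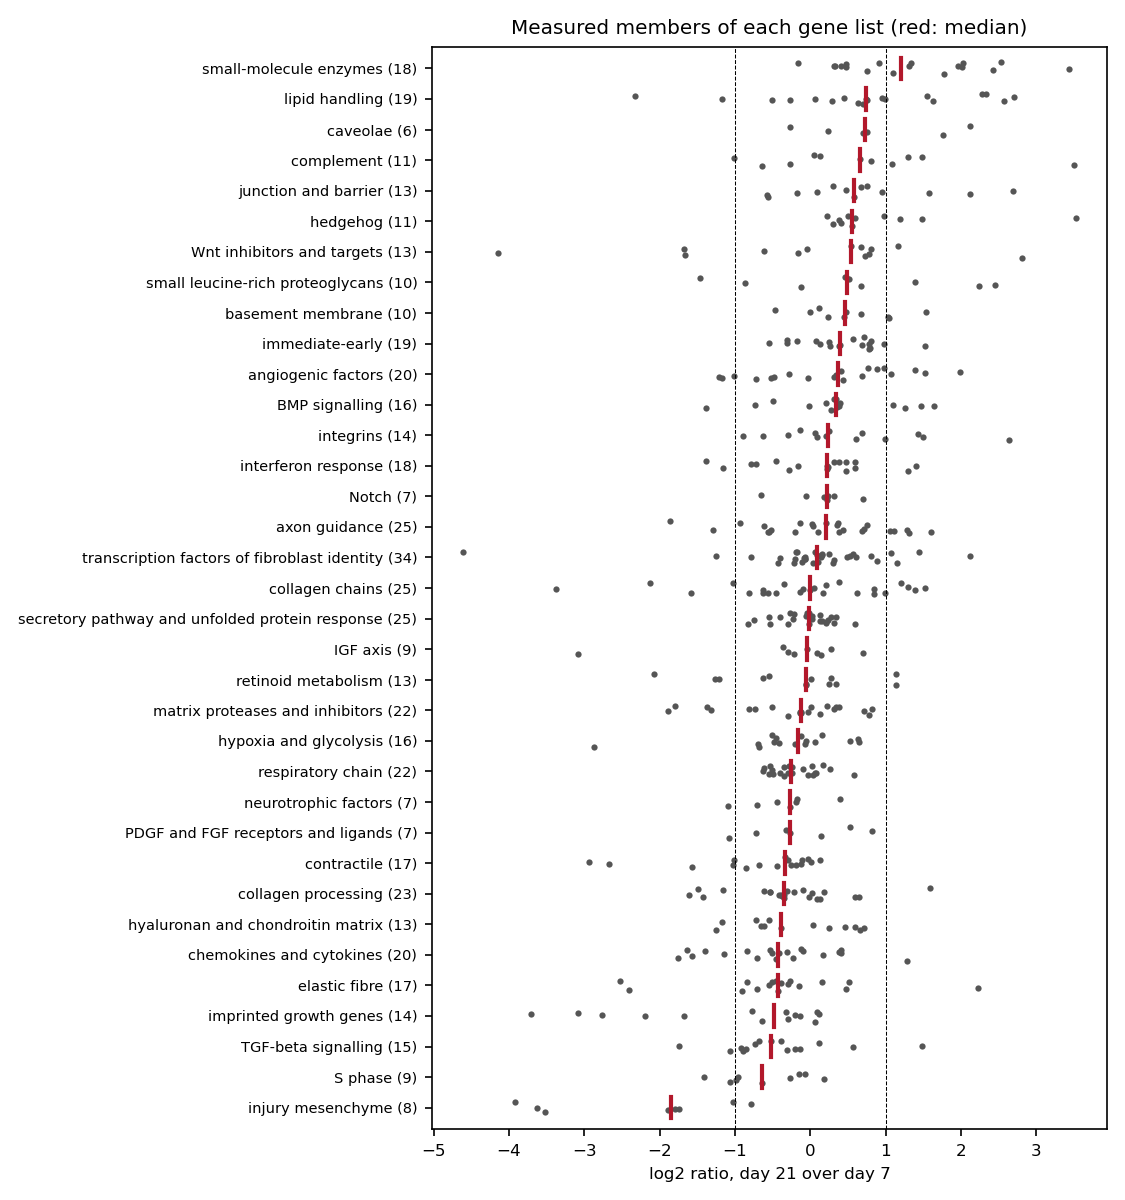
Log2 ratio of day 21 over day 7 (x axis) of each measured member (grey points) of the process lists with over 1 measured member, with the number measured in parentheses and the median in red. Dashed lines mark 2-fold. Over the whole class the injury list lies lowest at -1.84 and the small-molecule enzymes highest at 1.20.

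Epineurial identity genes were not uniform. Of 13, 2 were past 2-fold higher and 1 lower, with a median log2 ratio of -0.15. Clec3b, tetranectin, had 2642 CPM at day 21 and 1260 CPM at day 7, 2.10-fold higher (2.06 to 2.14) and 1.64-fold at matched depth. It was detected in 96.6% of thinned cells at day 21 and 71.6% at day 7 (99.4% and 93.5% without thinning). In thinned endoneurial cells, where it is no marker, it was found in 25.5% at day 21 and 5.88% at day 7, and its part in the epineurial values was not tested. Pcolce2, given above, was the other. Comp, cartilage oligomeric matrix protein, had 4.47 CPM at day 21 and 20.6 CPM at day 7, and 81.8 CPM in intact nerve. Dpt, dermatopontin, had 1019 CPM at day 21 and 649 CPM at day 7. At least 3 markers were detected in 86.1% of thinned cells at day 21 and 72.6% at day 7 (98.2% and 98.7% without thinning). At matched depth 6 of the 13 markers were past 2-fold lower and 0 higher, with Pi16 2.01-fold lower, Dpp4 2.02-fold, Cd55 2.80-fold and Sema3c 2.52-fold, so the near equality of Pi16 over the whole class did not hold there.

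Transcripts of other cell types moved with the comparison. The perineurial list summed to 179 CPM in epineurial cells at day 21 and 34.0 CPM at day 7, with 5 of 7 measured members past 2-fold higher. Cldn1, a tight junction claudin, stood at 108 CPM at day 21 and 16.8 CPM at day 7, 6.45-fold higher (5.59 to 7.48), beside 1090 CPM in perineurial cells of day 21. The Schwann cell list summed to 536 CPM at day 21 and 259 CPM at day 7, with 4 of 6 past 2-fold higher. The myelin gene Mbp had 61.9 CPM at day 21 and 11.1 CPM at day 7, 5.54-fold higher (4.65 to 6.68) and 11.7-fold at matched depth, where 10 counts stood behind the day 7 level, and at day 21 it stood at 35.6 CPM in endoneurial cells and 60.7 CPM in perineurial cells, with 1947 CPM in barcodes with no class. Myeloid markers summed to 16.02 CPM at day 21 and 30.7 CPM at day 7, with Ptprc at or under 3 counts at day 21. Lymphocyte, adipocyte and skeletal muscle lists had 0 measured members.

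The comparison was repeated without every epineurial cell with at least 3 UMIs over the perineurial and myelin genes, 323 cells at day 21 and 68 at day 7, a choice made after their levels were seen. The counts were then 415 higher and 284 lower, and all 30 named genes stayed past 2-fold. The log2 ratio of Cldn1 was then 1.79, in place of 2.69, and that of Tagln was -4.30, in place of -2.94. Cldn1, and Mbp below, were among the genes used to leave cells out, so their new ratios were set in part by that choice. The cutoff was a fixed count, while depth per cell differed between the libraries. Ratios also moved by over 1.5 times for Cav1, to 1.38 in place of 2.12, for Sfrp5, to 2.13 in place of 2.81, for Mbp, to 1.73 in place of 2.47, for Comp, to -1.60 in place of -2.19, and for Lrrc15, to -4.57 in place of -3.92. Of the 113 listed or named genes past 2-fold, 11 came inside it. They were Ptch1, Fgf1, Nrp1, Meox2 and Zeb2 among the higher ones and Cfb, Col14a1, Cnn2, Fst, Ccl8 and Angptl4 among the lower ones.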

How the data were processed

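Libraries were made from sorted TdTomato-positive cells of pooled nerves, with 1 library each for day 21, day 7 and intact nerve. The deposited matrices hold UMI counts in whole numbers for each barcode and gene, from Cell Ranger 6.1.2 per the file headers. The submitters' processing notes also list Cell Ranger 3.0.2, the builds GRCm38 and mm10, and Seurat 4.0.1. Classes came from the authors' deposited cell metadata, and 1 annotated day 21 cell was not found among the barcodes. How doublets were treated is not given in the sources used here, and no caller was run.

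Counts were summed over MES_EPI cells and scaled to CPM. Log2 ratios had 0.5 counts added to each sum. Levels have exact Poisson intervals, ratios exact conditional binomial intervals and shares exact Clopper-Pearson intervals, all at 95% and for counting error only. No test was made because each group was 1 library, and cells are not replicates. Depth per library bounds precision as stated with the levels.

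Named genes are the 15 largest ratios each way among 2763 genes that reached 50 CPM and were detected in 10% or more of the cells where they were higher. Transgene, haemoglobin, ribosomal protein, mitochondrial, Y-linked, Xist and numbered-clone features and markers of non-mesenchymal types were left out. From each list of a process or cell type, members with at least 20 CPM in either library were eligible, led by up to 4 of the largest ratio. A few others complete a small count or give context (such as the other members of a gene cluster) and were chosen after their values were seen. The members and lists were chosen with earlier results of these data known. Of 775 list symbols, 3 were not in the files. Some members counted in a list are not reported here by name.

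As alternatives, 9 planned settings and 3 chosen after seeing the data were tried, with edgeR 4.0.16 used for TMM factors alone. The ratio and thinning code (Python 3.11.15, numpy 2.4.6, scipy 1.17.1) was tested on simulated data. Gene positions are from GENCODE M21 where the identifier version matched (670 of 755 genes described), and 540 had an entry in the RefSeq promoter table.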

Additional observations from a re-analysis of the deposited data

Results flagged for a closer look

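Named and listed genes were compared with endoneurial, perineurial and MES_DIFF cells of the same libraries where they reached 20 CPM in both classes. For 5 genes the whole counting interval of the day 21 over day 7 ratio lay past 2-fold in one direction in another class and past 2-fold in the other direction in epineurial cells. Of 97 such genes past 2-fold in epineurial cells, 23 had a ratio of the opposite sign, of any size, in at least 1 of the other classes. These differences between classes were not tested, since each time was 1 library.

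Dlk1 had 176 CPM at day 21 and 28.1 CPM at day 7 in endoneurial cells, a log2 ratio of 2.64, beside -2.77 in epineurial cells. Tnmd, a tendon membrane protein, had 30.6 CPM at day 21 and 0.268 CPM at day 7 in endoneurial cells, a log2 ratio of 6.26 that rests on 1 count at day 7. In MES_DIFF cells Tnmd had a log2 ratio of 3.17, beside -1.37 in epineurial cells. Over epineurial cells of 8000 to 16000 UMIs its ratio was 1.32, so the opposite sign held over the whole class and did not hold there.

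In perineurial cells Hhip had 3.96 CPM at day 21 and 23.5 CPM at day 7, a log2 ratio of -2.56, beside 3.53 in epineurial cells. Fmod had 41.3 CPM at day 21 and 12.8 CPM at day 7 in perineurial cells, a log2 ratio of 1.68, beside -1.46 in epineurial cells. Over epineurial cells of 8000 to 16000 UMIs the ratio of Fmod was -0.85, inside 2-fold. Apod, a lipocalin, had 1079 CPM at day 21 and 3747 CPM at day 7 in perineurial cells, a log2 ratio of -1.80, beside 1.62 in epineurial cells and 0.96 in those of 8000 to 16000 UMIs.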

How the results depend on the processing

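No paired analysis was possible because each group was 1 library. For the same reason no library could be left out. Over the 9 planned settings and the 3 chosen after seeing the data, genes past 2-fold higher at day 21 numbered 428 as reported, 747 after thinning each cell to 2000 UMIs, 3800 with no filter on low values and 195 at a minimum of 20 CPM. Genes past 2-fold lower numbered 268 as reported, and 495, 3562 and 114 under the same settings. The other settings gave 394 to 505 higher and 253 to 337 lower. All 30 genes named by size of ratio stayed past 2-fold in the same direction under every setting. Of 113 named or listed genes past 2-fold, 33 came inside 2-fold over cells of 8000 to 16000 UMIs, 11 without cells holding perineurial or myelin UMIs, 9 after thinning, 4 with each cell weighted alike, 3 without the cells of the highest UMI counts, and 1 each under median-of-ratios scaling and without mitochondrial and ribosomal protein genes. Tnmd, at 1.32, and Angptl4, at 0.26, reversed over cells of 8000 to 16000 UMIs, and the cause was not tested. The median of the endothelial list, which had 1 measured member, reversed to -0.13 with no filter, which adds members of few counts. Rescaling moved the median log2 ratio of all genes by under 0.1. A count of 0 allows up to 3 counts, which are 0.291 CPM at day 21 and 0.221 CPM at day 7.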

Other observations

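Some epineurial genes outside the groups above also differed past 2-fold. Kdr, the main receptor for Vegfa and an endothelial marker, had 29.7 CPM at day 21 and 13.8 CPM at day 7 in epineurial cells, 2.15-fold higher (1.79 to 2.59) and 3.37-fold over cells of 8000 to 16000 UMIs. Intact nerve had 1.27 CPM of Kdr, and no other annotated class exceeded 11.2 CPM at either time. Of 8 endothelial markers Kdr was the 1 measured, and the list, Kdr included, summed to 34.6 CPM at day 21 and 21.6 CPM at day 7. Cldn5, Flt1 and Tie1 were at 3 counts or fewer in epineurial cells of day 21. Pecam1, Emcn, Vwf and Egfl7 had more than 3 counts there but under 5 CPM in both libraries. Barcodes with no class, outside that comparison of classes, had 499 CPM over the endothelial list at day 21. The source of the Kdr counts was not tested. Kdr was chosen for mention after its values were seen.

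Caveola coat genes Cav1 and Cav2, neighbours at chr6:17281185-17341452, were 4.34-fold (3.76 to 5.03) and 3.38-fold (2.46 to 4.76) higher at day 21. Cav1 had 78.5 CPM at day 21 and 18.1 CPM at day 7, beside 1280 CPM in perineurial cells of day 21. Without cells holding perineurial or myelin UMIs the log2 ratio of Cav1 was 1.38, in place of 2.12. Over cells of 8000 to 16000 UMIs Cav2 was 2.16-fold higher. Of 6 measured caveola genes these 2 were past 2-fold, and 0 were lower. The interferon-induced genes gave 2 of 18 past 2-fold higher and 2 lower: Gbp2 had 63.6 CPM at day 21 and 25.8 CPM at day 7, whereas Irf7 had 16.5 CPM at day 21 and 36.8 CPM at day 7.

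Of 3 measured tendon and cartilage genes, 2 were past 2-fold lower and 0 higher, namely Tnmd and Fmod, given above. Over cells of 8000 to 16000 UMIs 0 were past 2-fold lower and 1 higher. Thbs4, a thrombospondin of tendon, had 193 CPM at day 21 and 385 CPM at day 7, 1.99-fold lower (1.89 to 2.10), and 22.3 CPM in intact nerve. Tnmd had 15.4 CPM at day 21 and 40.1 CPM at day 7, but its log2 ratio over cells of 8000 to 16000 UMIs was 1.32. Of 13 retinoid genes, 2 were past 2-fold higher and 3 lower, but over cells of 8000 to 16000 UMIs 0 were higher and 2 lower. Rarres2, the chemerin precursor, had 669 CPM at day 21 and 304 CPM at day 7 and was 1.60-fold higher over those cells, while the retinal dehydrogenase Aldh1a3 had 22.4 CPM at day 21 and 53.7 CPM at day 7.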
